A study of Mus musculus with 17 samples.

Results

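The EGF receptor family and its ligands were followed in bulk RNA sequencing of sorted mouse alveolar type 2 (AT2) cells, the surfactant-producing epithelial cells of the lung that also act as stem cells of the alveolus. The set was chosen by gene symbol and holds 9 of the 43430 genes in each count table. It consists of the receptors Egfr, Erbb2 and Erbb3, the ligands Areg, Ereg, Hbegf, Tgfa and Btc, and the intracellular inhibitor Errfi1. All 9 symbols were found once in both tables, and 8 passed the filter on low counts in each comparison, with Ereg below it in both.

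All 17 libraries came from C57BL/6J mice aged 2 months. In the first experiment, otherwise untreated (naive) mice were given vehicle (4 libraries) or ISRIB (4 libraries), and cells were taken after 24 h. ISRIB stabilises the translation initiation factor eIF2B and so blunts the integrated stress response. These libraries were made from 3 ng of RNA with poly(A) selection and the NEBNext Ultra I kit. In the second, naive mice (4 libraries) were set against mice 14 days after bleomycin (5 libraries), an agent that injures the alveolar epithelium and leads to lung fibrosis. These libraries were made from 0.35 ng with a kit for low-input total RNA (SMARTer Stranded Total RNA-Seq v2, Pico), and the labels of all 9, bleomycin included, also carry the terms saline and vehicle. The labels used here give no drug dose and do not say whether the libraries of a group came from separate mice, so the p-values measure only the spread between these libraries. Levels and differences were compared only within a kit.

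Ligands of this family are made as membrane-anchored precursors and are released from the cell surface by proteases such as ADAM17. They bind receptors on the same or on neighbouring cells, and the receptors then pair and activate the RAS to ERK and the PI3K to AKT cascades. Erbb2 has no known ligand of its own and serves as the preferred partner of the other receptors, whereas Erbb3 has little kinase activity and signals through its partner. Errfi1, also called Mig6, is induced by receptor signalling and binds the kinase domain to shut it down. In the lung epithelium this system takes part in repair after injury.

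Total counts ran from 10493574 to 15727139 in the poly(A) libraries and from 3295257 to 6333166 in the total-RNA libraries, so that 1 count stood for 0.0638 to 0.0970 CPM (counts scaled to a common library size) in the former and 0.155 to 0.335 CPM in the latter. All 10 AT2 markers passed the filter in both tables, and their summed level was 177116 to 189607 CPM in the poly(A) and 50423 to 88705 CPM in the total-RNA libraries. Ribosomal and other technical RNA models held 3.60 to 4.57% of poly(A) and 16.8 to 30.5% of total-RNA counts. The library bleomycin 4 had counts in 13940 genes, against 15863 to 17112 in the other bleomycin libraries and 17108 to 19763 in the naive ones. In such bulk samples, fewer cells that express a gene and less RNA per cell cannot be told apart.

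In the GENCODE M21 annotation of GRCm38, 3 of the 5 ligands lie together on chromosome 5. Ereg (ENSMUSG00000029377, chromosome 5: 91074622-91093646, plus strand) is followed after 45952 bases by Areg (ENSMUSG00000029378, 91139599-91148432, plus strand). A further 208828 bases separate Areg from Btc (ENSMUSG00000082361, 91357261-91402994, minus strand), and Epgn, which encodes a further ligand, ends 39406 bases before Ereg. Tgfa (ENSMUSG00000029999) is on chromosome 6 at 86195223-86275719, plus strand. Egfr (ENSMUSG00000020122, 16752203-16918158, plus strand) and Erbb2 (ENSMUSG00000062312, 98412470-98437716, plus strand) are both on chromosome 11. Erbb3 (ENSMUSG00000018166) is on chromosome 10 at 128567523-128589652, minus strand, and Errfi1 (ENSMUSG00000028967) on chromosome 4 at 150853919-150868892, plus strand. Exons of Erbb2, Ereg and Tgfa share 9, 141 and 118 bases with a gene on the opposite strand (Mien1, Gm19610 and Gm43917), and because the sources used here do not say whether reads were counted by strand, reads from those bases cannot be told apart.

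RefSeq promoter windows (GRCm38.p6, the 250 bases before a transcript start) were matched for 6 members, Areg, Btc, Egfr, Erbb2, Errfi1 and Tgfa, with 7 windows in all. Both strands were searched for TGACGTCA (the cyclic AMP response element, CRE), TGACTCA (AP-1), CATTCC (TEAD) and TTGCATCA (an ATF4 and C/EBP composite element), motifs that do not overlap in these windows. The CRE was found in 1 window each of Areg and Errfi1, and it occurs in 1.55% of all 32851 windows. These windows are printed because they belong to a ligand and to the inhibitor that changed in opposite directions after bleomycin. The Areg window is chr5:91139349-91139598 on the plus strand, with the CRE 61 to 54 bases before the start. The Errfi1 window is chr4:150854820-150855069 on the plus strand, inside the annotated gene and upstream of a second start, with the CRE 51 to 44 bases before that start. Capitals mark the CRE.
Areg: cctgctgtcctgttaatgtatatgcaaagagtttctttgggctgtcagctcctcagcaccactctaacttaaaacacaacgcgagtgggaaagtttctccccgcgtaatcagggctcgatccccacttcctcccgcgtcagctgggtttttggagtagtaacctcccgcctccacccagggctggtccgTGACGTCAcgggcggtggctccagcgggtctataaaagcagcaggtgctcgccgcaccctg
Errfi1: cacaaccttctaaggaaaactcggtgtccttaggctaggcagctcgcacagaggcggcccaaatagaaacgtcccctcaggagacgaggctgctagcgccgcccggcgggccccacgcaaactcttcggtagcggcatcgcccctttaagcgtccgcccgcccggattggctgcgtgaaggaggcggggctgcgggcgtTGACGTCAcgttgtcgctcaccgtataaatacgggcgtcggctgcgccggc
The TEAD motif was found in the window of Erbb2 and in the other Errfi1 window, against 12.6% of all windows. AP-1 and the composite element were found in 0 of the 7 windows, against 4.46% and 0.791% of all windows. A match in letters is a description of the sequence and no evidence that a factor was bound in these cells.

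Per kilobase of exon, the inhibitor Errfi1 was the most abundant member in each of the 4 groups. It stood at 237 ± 26.1 CPM per kb in vehicle libraries and 140.4 ± 31.5 in naive total-RNA libraries (SD, n = 4 each). Erbb3 was the leading receptor and Areg the leading ligand, at 43.9 ± 3.47 and 32.8 ± 4.67 CPM per kb in vehicle libraries and 29.0 ± 2.20 and 33.0 ± 3.25 in naive total-RNA libraries. The ranges of these 2 genes overlapped in both, so their order was not resolved. Erbb2 followed with 16.3 CPM per kb in vehicle and 11.3 in naive total-RNA libraries, on average. The remaining members were far lower. In vehicle libraries Tgfa averaged 4.63, Hbegf 3.06, Btc 2.07 and Egfr 1.84 CPM per kb, where only Btc and Egfr overlapped. In naive total-RNA libraries Tgfa averaged 2.31, Egfr 1.74, Hbegf 1.59 and Btc 1.25 CPM per kb, and each overlapped its neighbour in this order. Ereg closed the order of the means in all 4 groups, at 0.0517 CPM per kb in vehicle and 0.0129 in naive total-RNA libraries. In bleomycin libraries, at 0.533, it overlapped Btc, Egfr and Tgfa.

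**Figure D1:**
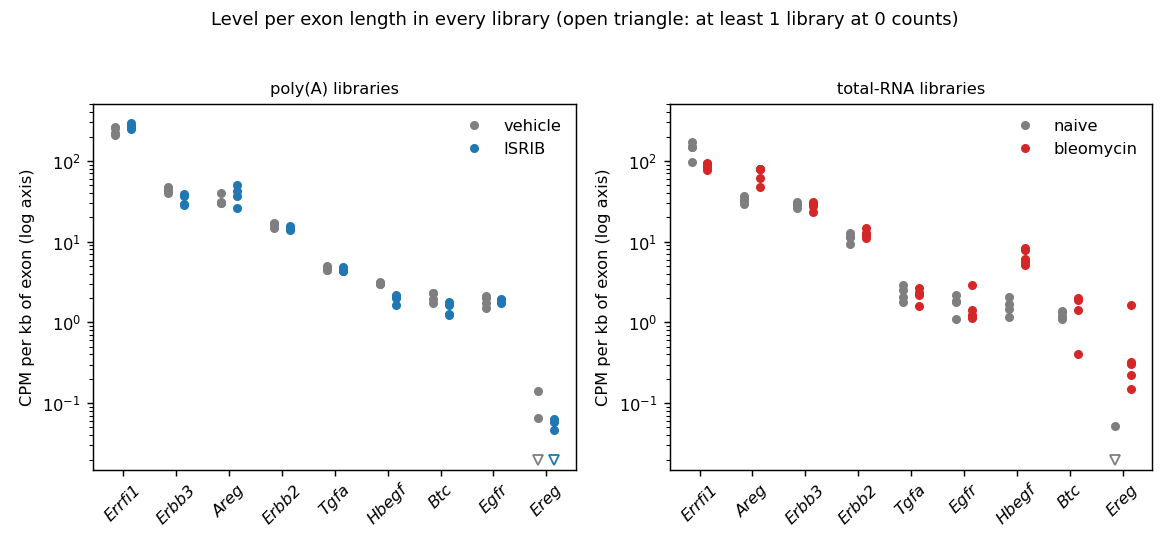
Level of each member in CPM per kilobase of exon (log axis) in every library, by group, with the poly(A) groups (vehicle, ISRIB) and the total-RNA groups (naive, bleomycin) in separate panels. By group mean Errfi1 lies at the top and Ereg at the bottom in all 4 groups. In the library bleomycin 2, however, Ereg (1.66 CPM per kb) lies above Egfr (1.43). Open triangles mark libraries with 0 Ereg counts, which a log axis cannot show.

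In bleomycin libraries Hbegf, with 6.59 ± 1.44 CPM per kb (SD, n = 5), stood above Tgfa at 2.21 and Btc at 1.53 with no overlap. Areg, at 69.6 ± 14.2, overlapped Errfi1 at 87.5 ± 6.66, but not when levels were scaled to the longest transcript (Areg 48.1 to 80.0, Errfi1 90.8 to 109.9 CPM per kb). With ISRIB, Hbegf averaged 1.98, Egfr 1.85 and Btc 1.49 CPM per kb, each overlapping its neighbour. By longest transcript, Hbegf (2.76 to 3.65) and Egfr (1.90 to 2.17) did not overlap there. The 5 ligands summed to 34.9 to 41.7 CPM per kb in the naive and 62.4 to 90.5 in the bleomycin libraries, ranges that do not overlap. The 3 receptors summed to 39.5 to 43.8 and 39.4 to 46.4 CPM per kb, ranges that do. Areg accounted for 86.4 ± 2.09% of the ligand sum in naive and 85.9 ± 4.98% in bleomycin libraries, and Hbegf for 4.19% and 8.49% on average. In the poly(A) libraries the ligand sum was 39.8 to 49.5 CPM per kb with vehicle and 34.5 to 58.1 with ISRIB. The receptor sum there was 55.8 to 66.1 with vehicle and 44.8 to 55.6 with ISRIB, and Erbb3 made up 70.8% and 66.7% of it on average. Errfi1 exceeded Egfr per kilobase by a ratio of 77.5 to 86.7 in naive and 31.5 to 83.3 in bleomycin libraries. The lowest of these ratios belonged to bleomycin 4, the library in which Egfr was highest.

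Bleomycin was compared with naive to ask how the family stood during repair of the injured alveolus. The ligands Areg and Hbegf were higher and the inhibitor Errfi1 was lower 14 days after bleomycin, while the receptors did not pass the test. Hbegf was 4.18-fold and Areg 2.10-fold higher, and Errfi1 was 1.60-fold lower. Thus 3 of the 8 members tested passed an adjusted p under 0.05 (edgeR quasi-likelihood test, Benjamini-Hochberg over all genes), 2 higher and 1 lower. Across all 11223 genes tested, 20.5% passed, 11.2% higher and 9.31% lower. Groups did not overlap in 4 of the 9 members (Areg, Hbegf, Errfi1 and the untested Ereg), against 19.7% of all genes tested, with 10.4% higher and 9.35% lower. The unadjusted p was under 0.05 for 3 members, against 33.3% of all genes tested. The median log2 fold change over the 8 members was 0.06, and over all genes tested it was 0.0026. With so large a share of all genes called, these counts do not single out the family.

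Among the receptors, Egfr, which binds all 5 ligands of the set, had 20.5, 20.9, 12.6 and 25.0 CPM in naive libraries 1 to 4. In bleomycin libraries 1 to 5 it had 12.7, 16.2, 13.5, 32.5 and 14.1 CPM. The highest value of all 9 libraries was thus a bleomycin library, number 4, and the groups overlapped. The log2 fold change was -0.18 (SE 0.27, 95% interval -0.75 to 0.40, adjusted p 0.702, edgeR). It ranged from -0.48 without bleomycin 4 (adjusted p 0.124) to -0.05 without naive 4. Erbb2, the shared partner, had 60.0, 59.4, 66.4 and 48.9 CPM in naive and 77.0, 66.2, 63.6, 65.0 and 58.0 CPM in bleomycin libraries. Only bleomycin 1 exceeded the naive range, and the log2 fold change was 0.17 (SE 0.13, interval -0.10 to 0.44, edgeR adjusted p 0.395). Erbb3, the neuregulin receptor, had 183, 158, 170.2 and 187 CPM in naive and 141, 167, 174, 187 and 179.7 CPM in bleomycin libraries. All but bleomycin 1 lay inside the naive range. Its log2 fold change was -0.04 (SE 0.11, interval -0.28 to 0.20, edgeR adjusted p 0.835), so its interval reached no change as large as those of Areg, Hbegf or Errfi1.

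Areg encodes amphiregulin, a low-affinity ligand of Egfr that is made by epithelial and immune cells in injured tissue. It had 38.9, 44.9, 41.1 and 35.5 CPM in naive libraries and 74.9, 58.5, 96.3, 97.2 and 95.8 CPM in bleomycin libraries. All 5 bleomycin libraries stood above all 4 naive ones, with bleomycin 2 the lowest of the 5. The means were 40.1 ± 3.94 and 84.5 ± 17.3 CPM, a log2 fold change of 1.07 (SE 0.16, interval 0.74 to 1.40, edgeR adjusted p 0.000111).

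Hbegf (ENSMUSG00000024486, chromosome 18: 36504927-36515805, minus strand) encodes heparin-binding EGF-like growth factor, which binds both Egfr and Erbb4. It had 8.05, 5.56, 9.91 and 7.15 CPM in naive libraries, from 24 to 33 counts each. In bleomycin libraries it had 26.7, 40.6, 29.6, 37.7 and 24.7 CPM, from 101 to 225 counts each. The groups were far apart, the lowest bleomycin library lying well above the highest naive one. The means were 7.67 ± 1.82 and 31.9 ± 6.96 CPM, a log2 fold change of 2.06 (SE 0.23, interval 1.58 to 2.55, edgeR adjusted p 6.06e-06).

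Ereg encodes epiregulin, another ligand of Egfr and Erbb4. It was counted once in the 4 naive libraries together, in naive 2, and 5, 38, 6, 2 and 8 times in bleomycin libraries 1 to 5. Every bleomycin library had at least 1 more count than any naive one, and 38 of the 59 counts came from bleomycin 2. Relative to library size the ratio was 33.4 (95% exact binomial interval 5.77 to 1342, counting error only), and without bleomycin 2 it was 15.3 (interval 2.46 to 631). Without naive 2 the naive count was 0 and no ratio could be formed. The gene was below the filter, and with no filter its log2 fold change was 4.58 (SE 1.32, edgeR adjusted p 0.00246). Bleomycin 2 also had the highest summed level of 9 fibroblast markers, 125 CPM, against 5.07 to 14.1 CPM in the naive libraries. It had the highest sum of 7 transitional epithelial markers as well, 1258 CPM. The part of either in the Ereg counts was not tested.

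Tgfa, the TGF-alpha ligand of Egfr, had 11.7, 16.2, 13.2 and 18.8 CPM in naive and 10.3, 14.8, 15.2, 14.2 and 17.1 CPM in bleomycin libraries. The groups overlapped almost completely, and the log2 fold change was -0.06 (SE 0.22, interval -0.52 to 0.40, edgeR adjusted p 0.874). Btc, encoding betacellulin, had 6.04, 4.91, 5.40 and 6.26 CPM in naive libraries. In bleomycin libraries it had 8.73, 8.66, 6.35, 1.86 and 9.03 CPM, the 1.86 coming from 6 counts in bleomycin 4. The other 4 bleomycin libraries were above all naive ones and bleomycin 4 was below them all. The log2 fold change was 0.32 (SE 0.38, interval -0.49 to 1.12, edgeR adjusted p 0.611), and without bleomycin 4 it was 0.54 (adjusted p 0.187).

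Errfi1 had 527, 526, 346 and 614 CPM in naive libraries and 334, 276, 329, 324 and 304 CPM in bleomycin libraries. All bleomycin libraries were below all naive ones, although naive 3 came close to the highest of them. The means were 503 ± 113 and 314 ± 23.8 CPM, a log2 fold change of -0.68 (SE 0.14, interval -0.98 to -0.39, edgeR adjusted p 0.00204). The spread was unequal, with a coefficient of variation of 22.4% in naive and 7.60% in bleomycin libraries. Its printed promoter window holds a CRE, as does that of Areg, and the letters are the same because the search used fixed letters. The part of the CRE in the change of either gene was not tested. Areg, Hbegf and Errfi1 stayed past the threshold when any 1 library was left out (highest edgeR adjusted p 0.00121, 8.07e-05 and 0.0156).

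**Figure D2:**
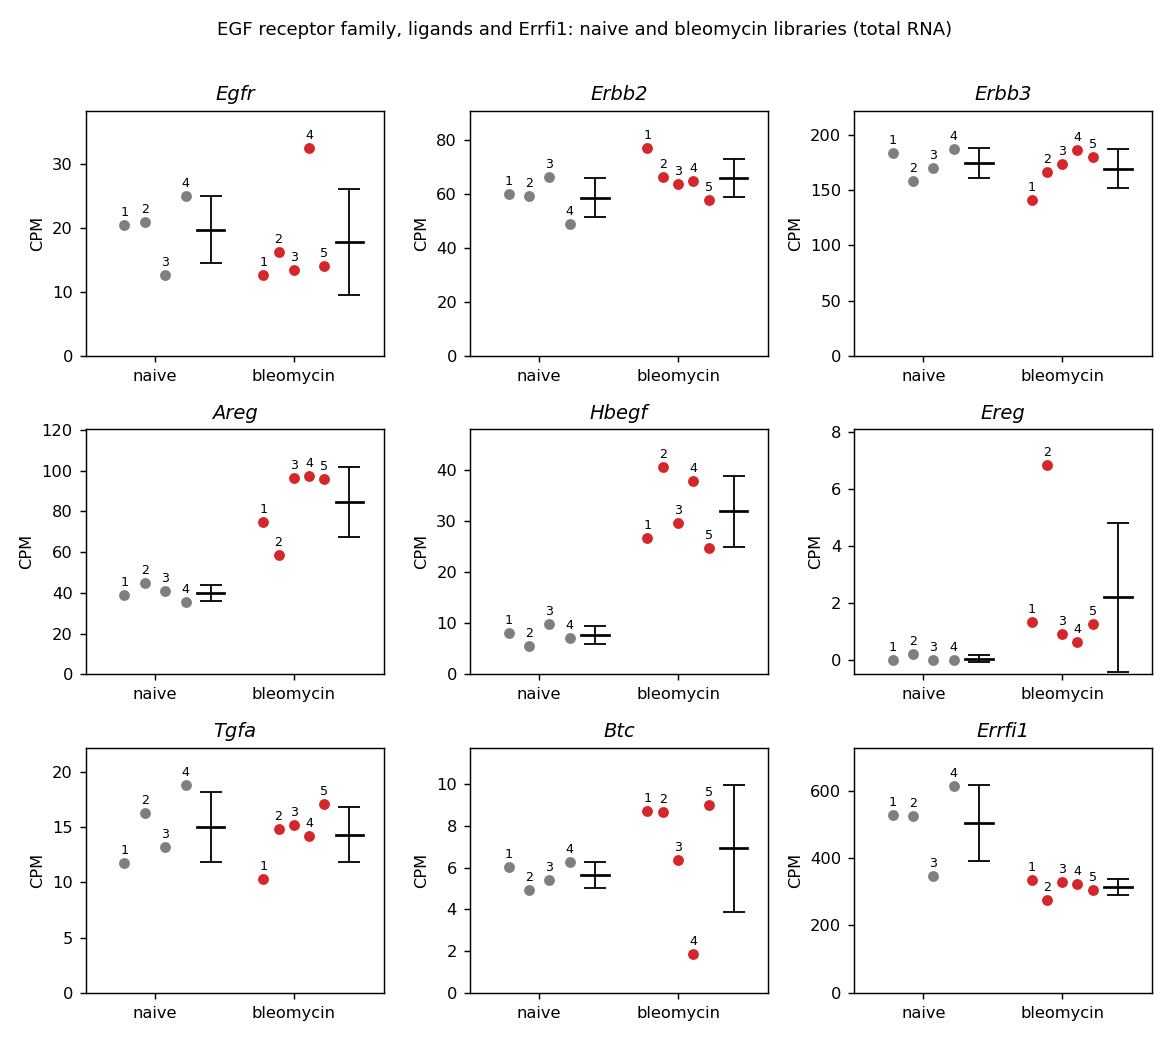
CPM of each of the 9 members in the 4 naive and 5 bleomycin libraries, 1 panel per gene with its own axis; digits are library numbers, and the mean with its SD stands beside the points. The groups are separate for Areg, Hbegf, Errfi1 and the sparsely counted Ereg and overlap for the other members.

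Several marker lists moved in the same libraries, in which 11.2% of all genes tested were called higher and 9.31% lower. Of 10 alveolar type 1 cell markers 7 were higher after bleomycin, and their sum rose from 1292 to 1525 CPM in naive to 1991 to 2686 CPM in bleomycin libraries. All 7 transitional epithelial markers were higher, with sums of 437 to 498 and 852 to 1258 CPM. Of 10 AT2 markers, 2 were higher and 1 lower, and their sum was 80773 to 88182 CPM in naive and 50423 to 88705 CPM in bleomycin libraries. Macrophage and monocyte markers summed to 23.1 to 32.5 CPM in naive and 44.0 to 74.5 CPM in bleomycin libraries. Of those 12 genes 4 were tested, with only Cd14 called higher, and Marco and C1qa were at 0 counts in all 9 libraries. Cd14 carried the rise of the sum, with a mean of 14.3 CPM in naive and 47.9 CPM in bleomycin libraries. The log2 fold changes of Cd68, Csf1r and Ly6c2 were 0.36, -0.40 and -0.31, none past the threshold. Fibroblast markers summed to 5.07 to 14.1 and 18.6 to 125 CPM, with 3 of 4 tested called higher, and endothelial markers to 19.4 to 27.6 and 20.4 to 75.1 CPM, with 2 of 5 tested called higher (Cdh5 and Vwf). Mesothelial markers summed to 0.298 to 5.34 and 3.44 to 20.6 CPM, and Msln, the only one tested, was called higher (log2 fold change 3.01). Airway epithelial markers summed to 485 to 961 and 555 to 994 CPM, with Foxj1, a marker of ciliated cells, the only 1 of 6 tested called higher (log2 fold change 2.27). Neutrophil markers, none of which could be tested, summed to at most 1.80 CPM. Basophil and mast cell markers, also untested, stayed at or below 5.38 CPM in every library. Lymphocyte markers summed to 85.6 to 103 CPM in naive and 40.7 to 69.5 CPM in bleomycin libraries, with Cd3d and Ms4a1 at 0. Nearly all of that sum was Rora, the only one of the 11 genes tested, with a mean of 94.2 CPM in naive and 48.0 CPM in bleomycin libraries, while Ptprc, the pan-leukocyte marker, averaged 0.486 and 0.994 CPM. The part of these cells in the changes of Areg, Hbegf and Errfi1 was not tested.

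ISRIB was compared with vehicle to ask whether the family moved 24 h after this drug was given to uninjured mice. Whether the integrated stress response itself changed in these cells was not tested here. Hbegf and Erbb3 were lower with ISRIB, by 1.55-fold and 1.31-fold, and no member was called higher. These were 2 of the 8 members tested, against 2.2% of the 12054 genes tested, of which 1.1% passed in each direction. The same 2 members were the ones whose groups did not overlap, against 8.65% of all genes tested, with 4.26% higher and 4.39% lower. The unadjusted p was under 0.05 for 5 members, 4 lower and 1 higher, against 16% of all genes tested. DESeq2 and limma-voom also called 2 members lower and 0 higher. With 1 library left out the edgeR count fell to 1 without vehicle 1, 2 or 3 or without ISRIB 2 or 4. The median log2 fold change over the 8 members was -0.10, and over all genes tested it was -0.00014. The members were chosen with earlier results of these data known, so these shares describe the set and are no independent test of it.

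Over all genes the ISRIB libraries fell into pairs. The chi-square per degree of freedom between libraries was 3.50 for ISRIB 1 and 3 and 4.38 for ISRIB 2 and 4, 7.80 to 8.94 for the other ISRIB pairs and 3.67 to 5.77 among vehicle libraries. With either pair left out, alternatives chosen after seeing the data, edgeR called 1 member without ISRIB 2 and 4 and 3 members without ISRIB 1 and 3. Among the marker lists, all 7 transitional epithelial genes had negative log2 fold changes with ISRIB (median -0.20), and Krt19 was called lower (log2 fold change -0.40, edgeR adjusted p 0.0170). Their sums were 580 to 707 CPM with vehicle and 492 to 581 CPM with ISRIB. In other lists, Tppp3 (airway epithelium) was called lower, with a log2 fold change of -0.43 (edgeR adjusted p 0.00384). Chil3 (macrophage and monocyte) was too, at -1.84 (edgeR adjusted p 0.0440), from means of 1.24 and 0.349 CPM. Etv5 of the AT2 list was also lower. The part of these differences in the changes of Hbegf and Erbb3 was not tested.

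Hbegf had 14.3, 15.5, 14.4 and 14.9 CPM in vehicle libraries 1 to 4 and 7.98, 9.93, 10.6 and 9.74 CPM in ISRIB libraries 1 to 4. All 4 ISRIB libraries were below all 4 vehicle libraries, which lay close together. The means were 14.8 ± 0.537 and 9.55 ± 1.10 CPM, a log2 fold change of -0.64 (SE 0.11, interval -0.87 to -0.41, edgeR adjusted p 0.00677). The call held under every alternative run, with log2 fold changes of -0.69 to -0.55 and adjusted p of at most 0.0278.

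Erbb3 had 257, 277, 285 and 239 CPM in vehicle libraries and 236, 176, 222 and 173 CPM in ISRIB libraries. ISRIB 2 and 4 were well below the rest, whereas ISRIB 1 lay just under vehicle 4. The means were 264 ± 20.9 and 202 ± 32.2 CPM, a log2 fold change of -0.39 (SE 0.09, interval -0.58 to -0.20, edgeR adjusted p 0.0292). The call was lost without vehicle 1, 2 or 3 (adjusted p 0.0685, 0.0974 and 0.0710) and without ISRIB 2 or 4 (0.0820 and 0.0915). With ISRIB 2 and 4 both left out, the log2 fold change was -0.20 (edgeR adjusted p 0.202), and with ISRIB 1 and 3 both left out it was -0.60. ISRIB 2 and 4 also had the lowest sums of airway epithelial markers, 3343 and 2428 CPM, against 4231 and 4095 CPM in ISRIB 1 and 3 and 3912 to 4368 CPM in the vehicle libraries. Their AT2 marker sums were 177116 and 179021 CPM, against 189607 and 189407 CPM in ISRIB 1 and 3. The part of these differences in the Erbb3 values was not tested.

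The other receptors were not called. Egfr had 19.6, 23.7, 22.8 and 17.3 CPM with vehicle and 19.4, 22.1, 21.3 and 20.9 CPM with ISRIB. The ISRIB values lay inside the vehicle range, and the log2 fold change was -0.0032 (SE 0.10, interval -0.21 to 0.21, edgeR adjusted p 0.993). Erbb2 had 87.2, 89.0, 87.3 and 76.4 CPM with vehicle and 76.2, 82.3, 72.1 and 74.6 CPM with ISRIB. Vehicle 4 fell among the ISRIB values, and the log2 fold change of -0.16 (SE 0.06, interval -0.29 to -0.02) did not pass the adjustment (edgeR p 0.0238, adjusted p 0.227).

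Areg had 36.6, 36.4, 38.0 and 48.2 CPM with vehicle and 31.7, 45.1, 50.8 and 61.0 CPM with ISRIB. The ISRIB libraries spread from below the lowest to above the highest vehicle library, with a coefficient of variation of 25.9%. The log2 fold change was 0.24 (SE 0.14, interval -0.07 to 0.54, edgeR adjusted p 0.447). It was 0.40 without ISRIB 1, 0.09 without ISRIB 4, 0.04 without ISRIB 2 and 4, and 0.41 without ISRIB 1 and 3, and it passed in none of these. Tgfa stood at 28.8, 28.5, 32.0 and 31.0 CPM with vehicle and at 31.7, 27.7, 27.9 and 29.7 CPM with ISRIB. It was among the steadiest members, with a log2 fold change of -0.04 (SE 0.08, interval -0.20 to 0.12, edgeR adjusted p 0.866). Btc had 10.4, 10.4, 8.72 and 7.96 CPM with vehicle and 8.17, 5.53, 7.51 and 5.70 CPM with ISRIB. Only ISRIB 1 reached the vehicle range. The log2 fold change of Btc was -0.47 (SE 0.15, interval -0.79 to -0.15), which did not pass the adjustment (edgeR p 0.00703, adjusted p 0.127) but did with no filter on low counts (adjusted p 0.0474). Ereg was counted 0, 3, 0 and 6 times with vehicle and 3, 3, 0 and 3 times with ISRIB, a ratio of 0.947 (95% exact binomial interval 0.333 to 2.69, counting error only).

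Errfi1 had 751, 935, 788 and 923 CPM with vehicle and 969, 885, 1042 and 947 CPM with ISRIB. ISRIB 1, 3 and 4 were above all vehicle libraries and ISRIB 2 was not. The log2 fold change was 0.18 (SE 0.07, interval 0.03 to 0.33), short of the threshold after adjustment (edgeR p 0.0239, adjusted p 0.227).

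**Figure D3:**
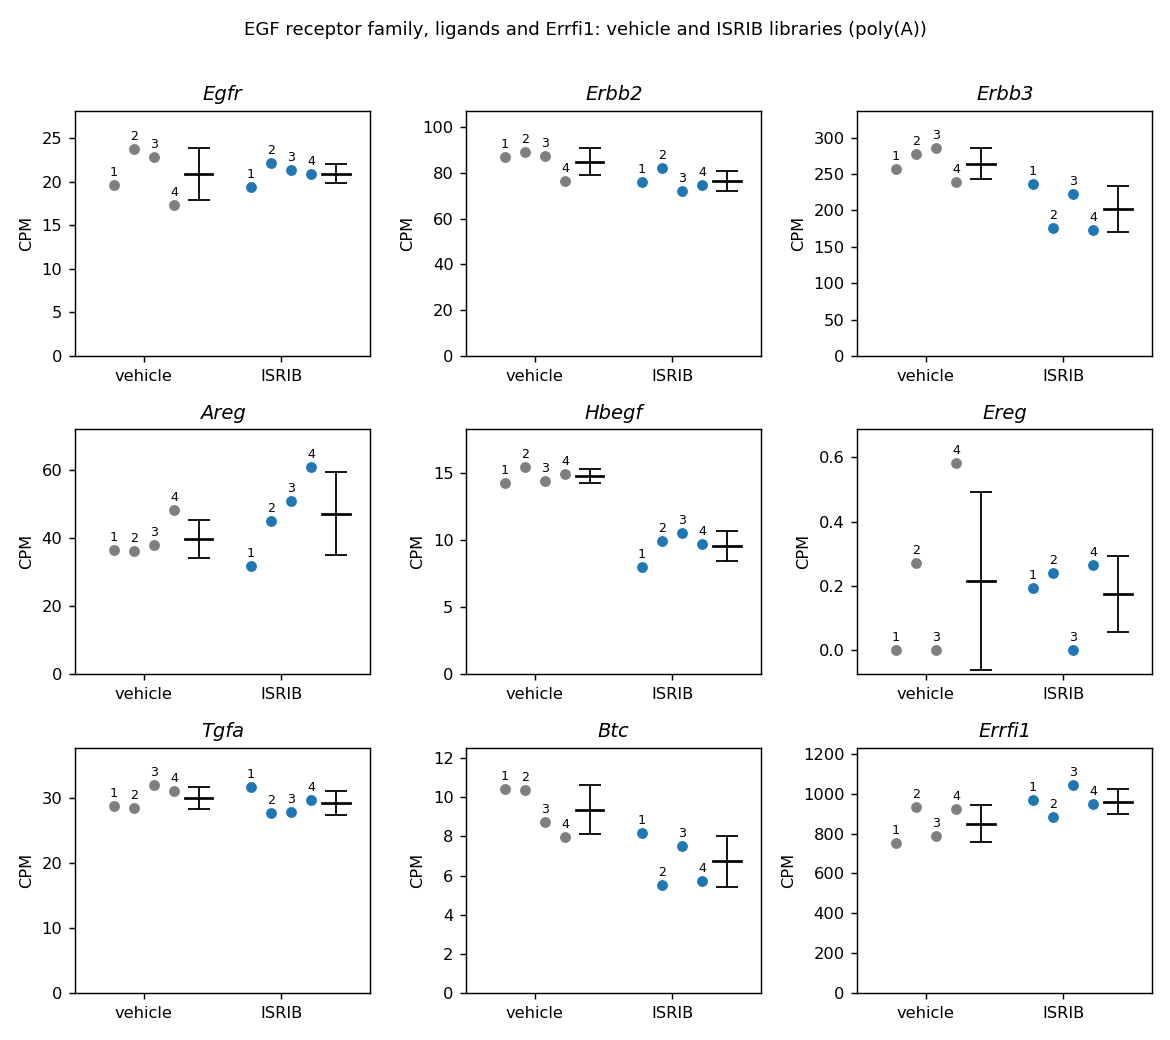
CPM of each of the 9 members in the 4 vehicle and 4 ISRIB libraries, 1 panel per gene with its own axis; digits are library numbers, and the mean with its SD stands beside the points. The groups are separate for Hbegf and Erbb3 and overlap for the other members.

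Hbegf was thus lower with ISRIB and higher with bleomycin, while Errfi1, lower with bleomycin, had a positive but uncalled log2 fold change with ISRIB. The experiments used different kits and separate controls, with no doses in the labels, and the difference between their fold changes was not tested.

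**Figure D4:**
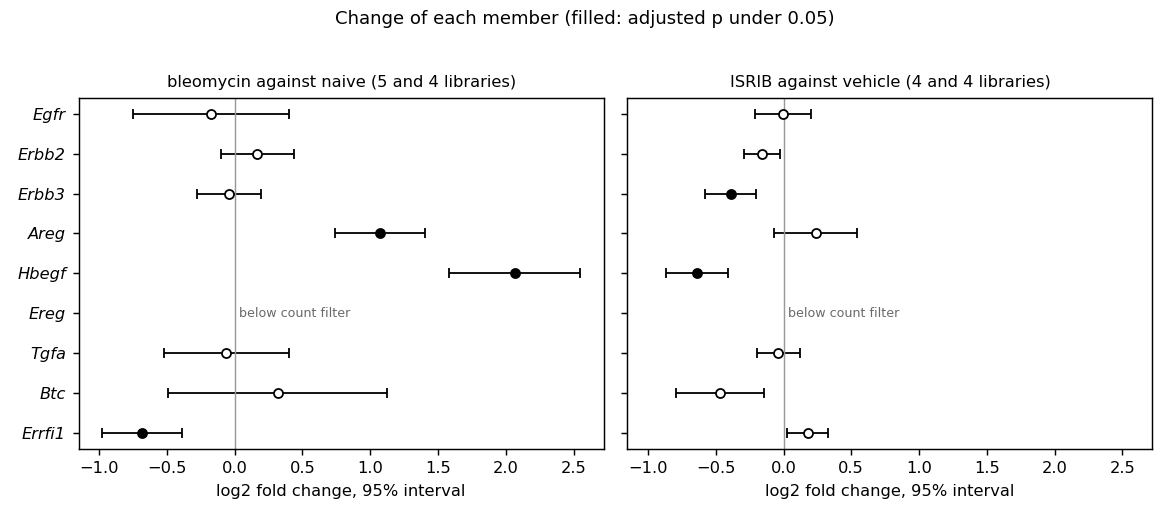
Log2 fold change of the 8 tested members with its 95% interval from the edgeR fit, for bleomycin against naive (left) and ISRIB against vehicle (right); filled points passed an adjusted p under 0.05. Hbegf lies below 0 at -0.64 with ISRIB and above 0 at 2.06 with bleomycin; the intervals of Egfr include 0 in both.

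The remaining receptors and ligands were barely counted in these cells. Erbb4, the fourth receptor, and the ligands Egf, Epgn, Nrg1, Nrg2, Nrg3 and Nrg4 all fell below the filter in both tables. In the total-RNA libraries Nrg1, a ligand of Erbb3 and Erbb4, had 0 counts in the 4 naive libraries and 5, 15, 5, 0 and 11 counts in bleomycin libraries 1 to 5. Over the groups that is at least 5.25-fold higher by the exact binomial lower limit, which covers counting error only. Erbb4 went from 10 counts in naive to 2 in bleomycin libraries, a ratio of 0.113 (interval 0.0121 to 0.532). In naive and bleomycin libraries respectively, Egf had 13 and 19 counts, Epgn 1 and 3, Nrg2 1 and 6, Nrg3 1 and 1, and Nrg4 6 and 4. With vehicle and ISRIB respectively, Erbb4 had 7 and 7 counts. Egf had 20 and 8 (ratio 0.379, interval 0.144 to 0.898) and Nrg1 15 and 5 (ratio 0.316, interval 0.0897 to 0.913). By library, Egf had 7, 2, 11 and 0 counts with vehicle and 5, 0, 0 and 3 with ISRIB. Nrg1 had 1, 3, 8 and 3 with vehicle and 2, 1, 1 and 1 with ISRIB. The groups overlapped for both genes, and vehicle 3 had the highest count of each. Summed counts with vehicle and ISRIB were 0 and 1 for Epgn, 6 and 2 for Nrg2, 0 and 0 for Nrg3, and 22 and 23 for Nrg4. The intervals cover counting error only, and reads may include copies of the same molecule.

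The machinery around the receptors was read from 8 lists with 100 genes in all. With bleomycin 86 of these were tested, and 14 were called higher and 8 lower (25.6% of those tested, against 20.5% of all genes), with a median log2 fold change of -0.03. Those called higher numbered 9 without naive 3 or without naive 4. With ISRIB 88 were tested, and 3 were called higher and 4 lower (7.95%, against 2.2% of all genes), with a median of 0.01. Those called higher numbered 1 without vehicle 1. The lists were chosen with earlier results of these data known, so the shares in both comparisons are descriptions and no independent test. Ligand shedding (6 genes, all tested) had 2 higher and 0 lower with bleomycin (33.3%, against 20.5% of all genes). Adam10, a protease that releases Btc among other ligands, rose from 80.3 ± 3.73 to 115 ± 14.9 CPM (log2 fold change 0.52, edgeR adjusted p 0.00454). Adam17, the main protease for Areg, Hbegf and Tgfa, was not called (log2 fold change 0.26, edgeR adjusted p 0.194). With ISRIB, edgeR, DESeq2 and limma-voom each called 0 of the 6 shedding genes, and 1 had an unadjusted p under 0.05.

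Receptor inhibitors and ubiquitin ligases (14 genes, 12 tested) had 2 higher and 1 lower with bleomycin and 2 higher and 0 lower with ISRIB. These were 25% and 16.7% of those tested, against 20.5% and 2.2% of all genes. With ISRIB, Lrig1, a membrane protein that promotes loss of the receptors, rose from 31.8 ± 3.99 to 44.2 ± 2.96 CPM (log2 fold change 0.47, SE 0.09, edgeR adjusted p 0.00961). Cblb, a ubiquitin ligase of activated receptors, rose from 18.4 ± 1.74 to 24.4 ± 2.88 CPM (log2 fold change 0.40, edgeR adjusted p 0.0430). The Cblb call was lost under limma-voom (adjusted p 0.0565), when any of 6 of the 8 libraries was left out, and without either ISRIB pair (0.102 without ISRIB 2 and 4, 0.0824 without ISRIB 1 and 3). With bleomycin the log2 fold changes of Lrig1 and Cblb were -0.58 and -0.80, neither past the threshold (edgeR adjusted p 0.139 and 0.105).

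ERK-responsive genes, the transcriptional readout of the cascade, held most of the pathway calls with ISRIB. Of 18 tested out of 20, 4 were lower and 1 higher, with a median log2 fold change of -0.08. That is 27.8% of those tested, against 2.2% of all genes, in a list chosen with earlier results of these data known. Egr1, an immediate-early transcription factor, fell from 28.2 ± 3.996 to 14.9 ± 3.68 CPM (log2 fold change -0.93, SE 0.14, edgeR adjusted p 0.00309). Dusp6, the phosphatase that switches off ERK, fell from 84.8 ± 6.20 to 56.3 ± 3.73 CPM (log2 fold change -0.59, SE 0.07, edgeR adjusted p 0.000453). Junb fell from 98.3 ± 10.2 to 71.2 ± 7.86 CPM and Etv5, also an AT2 marker, from 964 ± 37.3 to 793 ± 23.3 CPM (edgeR adjusted p 0.00817 for both). Jun, an AP-1 subunit, moved the other way, from 167 ± 15.7 to 219.6 ± 23.4 CPM (log2 fold change 0.40, edgeR adjusted p 0.0137), and its call was lost without vehicle 1 (0.0546) and without ISRIB 1 and 3 (0.0693). All 7 genes called in the pathway lists had groups that did not overlap, against 8.65% of all genes tested. These genes were picked by their call, which favours separate groups, so the separation adds no support.

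With bleomycin, 17 ERK-responsive genes were tested, of which 3 were higher and 4 lower, with a median log2 fold change of -0.25. The share called was 41.2%, against 20.5% of all genes. Ccnd1, the cyclin of the G1 phase, rose from 147 ± 17.4 to 362 ± 63.2 CPM (log2 fold change 1.30, SE 0.14, edgeR adjusted p 3.56e-06). Jun fell from 318 ± 26.8 to 176 ± 34.1 CPM (log2 fold change -0.86, edgeR adjusted p 0.000286) and Fos, its partner in AP-1, from 82.5 ± 13.3 to 43.0 ± 9.83 CPM (log2 fold change -0.95, edgeR adjusted p 0.000381). Spry1, a feedback inhibitor of receptor signalling, fell from 192 ± 15.2 to 106 ± 19.0 CPM (log2 fold change -0.85, edgeR adjusted p 0.000148). Errfi1, itself a feedback inhibitor, fell in the same libraries by 0.68 on the log2 scale.

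Adaptors (15 genes) had 1 higher and 2 lower with bleomycin, 20% of those tested against 20.5% of all genes. Gab2, a docking protein that links receptors to PI3K, rose from 15.6 ± 4.04 to 31.6 ± 5.29 CPM (log2 fold change 1.00, edgeR adjusted p 0.00174). Plcg1, a phospholipase recruited to receptors, fell from 268 ± 17.9 to 196 ± 13.2 CPM (log2 fold change -0.45, edgeR adjusted p 0.00521). Eps8, an Egfr substrate, fell from 228 ± 4.42 to 162 ± 27.2 CPM (log2 fold change -0.49, edgeR adjusted p 0.00891). Receptor trafficking (14 genes) had 4 higher and 1 lower (35.7% of those tested). Epn1, an endocytic adaptor, rose by 0.62 and its paralogue Epn2 fell by 0.72 on the log2 scale (edgeR adjusted p 0.00217 and 0.00564). Cltc, the clathrin heavy chain, rose from 393 ± 43.1 to 536 ± 39.1 CPM (log2 fold change 0.45, edgeR adjusted p 0.00904). The PI3K to AKT core (11 genes, 10 tested) had 1 called (10%). This was Akt1, which rose from 82.3 ± 6.51 to 118 ± 6.11 CPM (log2 fold change 0.52, edgeR adjusted p 0.00241). The RAS to ERK core (13 genes, 12 tested) had 1 called higher and 0 lower (8.33%). With ISRIB, adaptors, trafficking and both cores had 0 genes called by edgeR, DESeq2 or limma-voom. The unadjusted edgeR p was under 0.05 for 4 adaptors, 2 genes of the PI3K to AKT core, 1 of the RAS to ERK core and 0 of trafficking. It was under 0.05 for 16% of all genes tested.

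**Figure D5:**
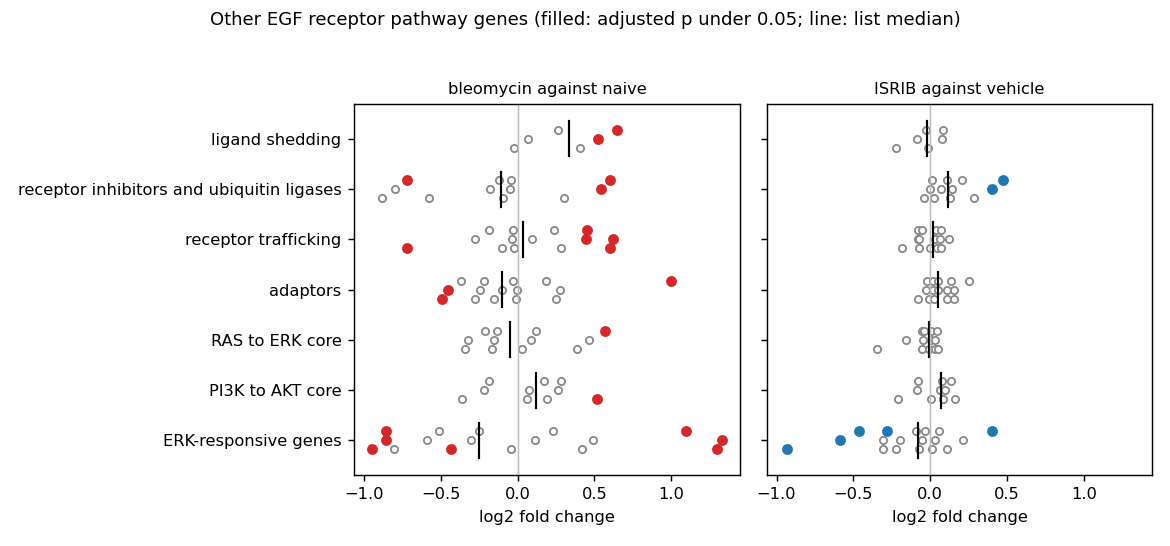
Log2 fold change of each tested gene of the pathway lists, 1 point per gene and 1 row per list, for bleomycin against naive (left) and ISRIB against vehicle (right); filled points passed an adjusted p under 0.05 and the vertical line is the median of the list. With bleomycin called genes lie on both sides of 0, and with ISRIB the 7 called genes fall in the lists of ERK-responsive genes and of receptor inhibitors.

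Genes with the pattern most like that of Areg, Egfr and Errfi1 were sought by Pearson correlation of log2 CPM over the 17 libraries, after the mean of each table was subtracted, among 8784 genes. Libraries of a group share kit and treatment, and group means were not subtracted. Differences between groups thus enter the coefficients, which describe likeness only. For Areg the most similar genes were Steap4 (r = 0.91), Esam (0.90) and Set (0.90), with 0.68, 0.72 and 0.42 within the 8 poly(A) libraries. For Egfr they were Ddx46 (0.90), Recql5 (0.87) and Exoc6 (0.87), with 0.45, 0.52 and -0.02 there. For Errfi1 they were Ttc28 (0.91), Ubxn7 (0.91) and Epha7 (0.90), with 0.54, 0.68 and 0.91 there. Within the 9 total-RNA libraries all of these lay between 0.89 and 0.98.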

How the data were processed

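The deposited values are read counts per gene, in 1 table of 43430 mouse gene IDs for each library kit. Per the submitters' processing notes, which give neither role nor order, the tools were bcl2fastq 2.19.1, FastQC, Trimmomatic 0.36, STAR 2.6.0 and HTSeq 0.11.2 with the build mm10. Neither the annotation release nor the strand setting is given in the sources used here. Symbols were taken by gene ID from GENCODE M21, where 42546 IDs had one.

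For each table, edgeR 4.0.16 (R 4.3.3) was used to drop low genes by group (filterByExpr, minimum count 10 and minimum total 15), to compute TMM factors and to fit the quasi-likelihood model on group alone. Its F test is two-sided. Benjamini-Hochberg adjustment ran over every gene tested, and called means an adjusted p under 0.05. CPM are counts over effective library sizes, also for genes below the filter. Means carry the SD over libraries. The SE is the unshrunken log2 fold change over the root of its F statistic, and the 95% interval uses the degrees of freedom of the fit. The procedure was tested on simulated counts. Genes below the filter were compared by summed counts with exact Clopper-Pearson intervals.

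All 9 members were named in both comparisons, as were the genes of the list of other receptors and ligands. Of the other pathway lists, up to 6 genes called in each direction with the lowest p were named, and Adam17 and the bleomycin values of Lrig1 and Cblb were added after their values were seen. The members and lists were chosen with earlier results of these data known. Alternatives were other scaling factors, no filter, DESeq2 1.42.0, limma-voom (limma 3.58.1), a replicate block, removal of technical RNA models, length of the longest transcript, and each library left out. edgeR's common coefficient of biological variation was 7.66% for ISRIB and 21.1% for bleomycin, so smaller changes could be called in the former.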

Additional observations from a re-analysis of the deposited data

Results flagged for a closer look

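Of 36 sets of libraries (9 members in 4 groups), 5 held a library whose distance from the others was large for the range of its group, where chance gives about 1 in 20. Vehicle 4 was the lowest for Erbb2 at 76.4 CPM, with the other vehicle libraries at 87.2 to 89.0, and the highest for Areg at 48.2 CPM, with the others at 36.4 to 38.0. Bleomycin 4, the library with counts in the fewest genes, was the highest for Egfr at 32.5 CPM, with the others at 12.7 to 16.2. Ereg stood at 0.214 CPM in naive 2, from 1 count, with 0 in the other naive libraries, a pattern that a single count produces by construction. Ereg was at 6.86 CPM in bleomycin 2, with 0.619 to 1.32 CPM in the other bleomycin libraries.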

How the results depend on the processing

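With bleomycin the calls of Areg, Hbegf and Errfi1 held under all alternatives run, and leaving out 1 library at a time gave 1554 to 2584 genes called in all. Pathway genes called higher with bleomycin ranged from 9 (without naive 3 or naive 4) to 15 with 1 library left out, and to 16 with no filter. In uncalled members the sign turned for Erbb3 (0.0215 without bleomycin 1, range -0.0866 to 0.0215) and Tgfa (0.0566 without naive 4 and 0.03 without bleomycin 1, range -0.162 to 0.0566).

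With ISRIB, 265 genes were called in all, 648 with no filter, 408 by DESeq2, 151 with ISRIB 2 and 4 left out, 478 with ISRIB 1 and 3 left out, and 86 to 269 with 1 library left out (86 without vehicle 1, 102 without vehicle 2, 159 without ISRIB 4). Members called numbered 3 with no filter and with ISRIB 1 and 3 left out, 1 with ISRIB 2 and 4 left out, and 1 to 2 with 1 library left out. Pathway genes called higher numbered 1 to 3 with 1 library left out, the 1 being without vehicle 1. Erbb3 stood at -0.20 with ISRIB 2 and 4 left out, at -0.60 with ISRIB 1 and 3 left out and at -0.47 to -0.32 with 1 library left out. Btc passed at -0.47 with no filter and at -0.74 with ISRIB 1 and 3 left out (adjusted p 0.0277). Egfr, near 0, gave 0.0068 under the replicate block, 0.0372 with ISRIB 1 and 3 left out and -0.0821 to 0.0594 with 1 library left out. Leaving out a pair of ISRIB libraries was chosen after seeing the data. The causes were not tested.

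Same-numbered libraries showed little joint deviation (correlation -0.11 to 0.08 with ISRIB and -0.04 to 0.05 with bleomycin). In the ISRIB experiment numbers 3 and 4 gave 0.0849 and 0.0547, above the highest correlation with another number (0.0811 and 0.0184). A pairing by number was thus not evident, but so few libraries cannot exclude one. The fit with a replicate block called 277 genes with ISRIB and 2187 with bleomycin, and Cblb had an adjusted p of 0.0728 in it.

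Scaled by the longest transcript instead of all exons, levels in CPM per kb moved for Hbegf (vehicle 5.11, ISRIB 3.30, naive 2.65, bleomycin 11.03), Tgfa (6.64, 6.46, 3.31 and 3.16), Errfi1 (vehicle 279, ISRIB 316, bleomycin 103), Egfr (ISRIB 2.05) and Btc (naive 1.40). Hbegf then overlapped Erbb2 in bleomycin libraries and stood above Egfr on average in naive ones. Members with few counts, Ereg above all, limit what this depth can show.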
